A study of Mus musculus with 2 samples.

Results

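The desert hedgehog signalling genes are 7 genes, taken by symbol from the 32285 genes counted in this series: the ligand *Dhh*, the receptor *Ptch1*, the decoy receptor *Hhip*, the signal transducer *Smo* and the transcription factors *Gli1*, *Gli2* and *Gli3*. None of them was chosen by its level. The data were 2 single-cell RNA libraries from mouse testes at postnatal day (PD) 7, when undifferentiated spermatogonia are forming. One library came from a control mouse, a littermate control per the methods, whose own alleles are not given in the sources used here. The other came from a *Brca1* vKO mouse, which carries 1 floxed and 1 deleted *Brca1* allele (*Brca1* f/-) and *Vasa-Cre*, a transgene whose recombinase is made in germ cells. *Vasa-Cre* acts in germ cells, so the somatic cells of that mouse, which hold most of the pathway transcripts described here, keep the floxed allele beside the deleted one. No treatment is given for either mouse.

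Hedgehog ligands are secreted, lipid-modified proteins. In cells without ligand, PTCH1 holds SMO inactive, and the full-length GLI proteins are kept low or processed to repressors. When ligand binds PTCH1, SMO is freed, GLI activators form, and transcription of *Ptch1*, *Hhip* and *Gli1* rises in many tissues, which makes these genes common readouts of a responding cell. In the testis, Sertoli cells are known as the source of DHH, and interstitial, peritubular myoid and Leydig cells are known as its targets.

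With 1 library per genotype there is no replicate check on any difference between genotypes, and no test between them was made. Genotype, mouse and library preparation cannot be told apart, and more cells of the *Brca1* vKO testes were loaded per the methods. All intervals below are exact 95% intervals that cover counting error only. UMIs (unique molecular identifiers, each standing for 1 captured RNA molecule) were summed over the cells of a class and given as CPM, counts per 1000000 UMIs of that class. The control library kept 5077 cells with 118228876 UMIs, and the *Brca1* vKO library kept 8712 cells with 163226036 UMIs. The libraries shared 21 cell barcodes.

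Cell classes came from 14 clusters, built without the 7 genes and the rest of the pathway list, and were named by their markers. The Sertoli-like class (*Clu*, *Amhr2*, *Sox9* and *Rhox8*) held 2030 control and 4161 *Brca1* vKO cells, the stromal-like class (*Dcn*, *Pdgfra*, *Tcf21*, *Dlk1* and *Col3a1*) 854 and 1986, and the myoid-like class (*Acta2*, *Myh11*, *Tagln* and *Fbxl22*) 557 and 1414. The Leydig-like class (*Cyp17a1*, *Cyp11a1*, *Star* and *Hsd3b1*) held only 47 and 109 cells, and the germ-like class (*Ddx4*, *Dazl*, *Sycp1* and *Zbtb16*) 662 and 220. Every marker of these 5 classes was detected in its own class in both libraries. The germ-like class had 9.97% of control and 12.3% of *Brca1* vKO cells marked as doublets, and its *Brca1* level was 72.8 CPM in the control and 45.1 CPM in the *Brca1* vKO library. Tags from the end of a transcript need not lie in the deleted exons, so that difference is no check of the deletion.

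The 7 genes lie on 6 chromosomes of GRCm38, the assembly of mm10, and each is protein coding in GENCODE. *Dhh* is on chromosome 15 (98891152 to 98898540, minus strand), *Hhip* on chromosome 8 (79965851 to 80058006, minus strand) and *Smo* on chromosome 6 (29735503 to 29761365, plus strand). *Ptch1* (63508328 to 63573598, minus strand) and *Gli3* (15463235 to 15730026, plus strand) share chromosome 13, while *Gli1* is on chromosome 10 (127329882 to 127341974, minus strand) and *Gli2* on chromosome 1 (118834132 to 119053619, minus strand). RefSeq promoter windows, 250 bases before to 50 after the start in GRCm38.p6, matched 6 of the 7 genes, all but *Gli1*. The windows of the ligand and of 2 response genes are shown so that the promoter of the Sertoli-expressed gene can be set beside those of genes of the responding cells. Capitals mark the bases from the RefSeq start onward and lower case those before it. For *Ptch1* the lower-case bases also lie within the annotated gene. The *Dhh* window is chr15:98898491-98898790, that of *Ptch1* is chr13:63565686-63565985, inside the annotated gene, and that of *Hhip* is chr8:80057959-80058258, each written 5′ to 3′ on the minus strand.
Dhh: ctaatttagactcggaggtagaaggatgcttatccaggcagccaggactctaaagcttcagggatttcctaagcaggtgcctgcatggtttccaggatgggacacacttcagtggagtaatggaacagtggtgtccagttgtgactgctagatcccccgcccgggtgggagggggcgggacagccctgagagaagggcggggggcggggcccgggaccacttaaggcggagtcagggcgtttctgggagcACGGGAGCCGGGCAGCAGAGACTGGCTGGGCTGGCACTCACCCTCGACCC
Ptch1: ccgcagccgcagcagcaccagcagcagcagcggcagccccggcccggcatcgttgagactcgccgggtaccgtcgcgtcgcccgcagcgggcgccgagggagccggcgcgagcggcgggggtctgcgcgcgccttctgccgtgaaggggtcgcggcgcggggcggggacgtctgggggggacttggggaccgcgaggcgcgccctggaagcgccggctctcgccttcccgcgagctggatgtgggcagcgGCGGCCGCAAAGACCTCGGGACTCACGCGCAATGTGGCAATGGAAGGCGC
Hhip: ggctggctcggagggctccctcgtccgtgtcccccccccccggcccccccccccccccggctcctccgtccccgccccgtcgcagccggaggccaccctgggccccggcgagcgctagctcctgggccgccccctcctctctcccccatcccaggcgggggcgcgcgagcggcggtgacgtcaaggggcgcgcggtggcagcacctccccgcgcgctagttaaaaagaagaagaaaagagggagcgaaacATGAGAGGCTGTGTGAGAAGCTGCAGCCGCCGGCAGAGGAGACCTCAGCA
The *Dhh* window held 12 CG pairs and was 61.7% G or C, against 47 and 76.3% for *Ptch1* and 30 and 73.7% for *Hhip*. Over 27025 promoter windows the medians were 7 CG pairs and 52.7%. The GLI binding motif GACCACCCA, searched on both strands as itself and as TGGGTGGTC, matched none of the 6 windows. It matched 66 of all windows (0.244%). The search says only that these letters are not in these windows.

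*Dhh* was a Sertoli gene in both libraries. Its level in Sertoli-like cells was 167 CPM (164 to 170.4) in the control and 187 CPM (184 to 189.8) in the *Brca1* vKO library. Sertoli-like cells held 9086 of the control library's 9956 *Dhh* UMIs, or 91.3%, and 94.4% of those in the *Brca1* vKO library. In the control, the Sertoli-like level was 77.0 times the stromal-like one (54.2 to 113) and 20.7 times the germ-like one (18.3 to 23.5). In the *Brca1* vKO library these ratios were 35.8 (30.2 to 42.8) and 17.3 (14.2 to 21.4). The annotated exons of *Rhebl1*, which encodes a RHEB-like GTPase, overlap those of *Dhh* on the same strand. *Rhebl1* stood at 8.69 and 8.31 CPM in Sertoli-like cells but at 33.7 and 38.0 CPM in germ-like cells, an order opposite to that of *Dhh*.

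The ligand was found across the Sertoli population rather than in a small subset of it. After each cell had been thinned to 5000 UMIs, *Dhh* was detected in 57.6% of control (55.4 to 59.8) and 60.2% of *Brca1* vKO Sertoli-like cells (58.7 to 61.7). Unthinned, with medians of 18704 and 15614 UMIs per cell, control Sertoli-like cells had a *Dhh* UMI in 91.8% of cases. Of the thinned control cells, 34.1% had 1 *Dhh* UMI, 16.1% had 2 and 7.39% had at least 3. Sertoli-like cells formed a cluster led by *Rhox8*, *Hsd17b1* and *Amh* and a proliferating cluster led by *Hist1h1b*, *Ube2c* and *Cdk1*. *Dhh* was at 178 and 202 CPM in the former, control before *Brca1* vKO, and at 147 and 165 CPM in the proliferating cells. As a share of UMIs it was thus higher in the cluster that was not led by cell cycle genes, in both libraries. The proliferating cells had more UMIs each, with medians of 29058 and 25587.5 against 17538 and 13814. The order therefore does not hold for *Dhh* UMIs per cell: in the control, 509 proliferating cells had 2853 and the 1521 others 6233.

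In stromal-, myoid-, Leydig- and germ-like cells, *Dhh* stayed near or below the level that carried-over Sertoli RNA would give. The Sertoli genes *Amh*, *Rhox8* and *Aard* also appeared in other classes at low levels. Had *Dhh* accompanied them in the ratio seen in Sertoli-like cells, it would have stood at 5.69 CPM in control stromal-like, 4.64 in myoid-like and 8.07 in germ-like cells. The measured levels were 2.17, 1.81 and 8.07 CPM. In the *Brca1* vKO library the measured levels were 5.22, 4.06 and 10.8 CPM, against 9.21, 7.51 and 10.5 CPM at the Sertoli ratio. Leydig-like cells had 10.1 and 5.33 CPM from 11 and 13 UMIs, below the 16.9 and 13.8 CPM at that ratio. The *Dhh* UMIs of these 4 classes were therefore read as background. Of those in control germ-like cells, 226 lay in a group led by *Clu* and *Aard*, described below, with 61.3% of cells marked as doublets. *Dhh* was at 64.0 CPM there and at 1.79 CPM in the *Gfra1*-led group. In the *Brca1* vKO library these levels were 76.6 and 4.64 CPM, with 90.9% of the first group marked as doublets. The Sertoli ratio does not separate doublets from other carry-over. In the 27 and 36 endothelial-like cells *Dhh* was at 11.3 CPM (5.43 to 20.8) and 18.3 CPM (11.6 to 27.5), from 10 and 23 UMIs. These intervals held the 8.12 and 13.2 CPM at the Sertoli ratio. The other hedgehog ligands were nearly undetected: *Shh* and *Ihh* together gave 10 UMIs in the Sertoli-, stromal- and myoid-like cells of both libraries.

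**Figure D1:**
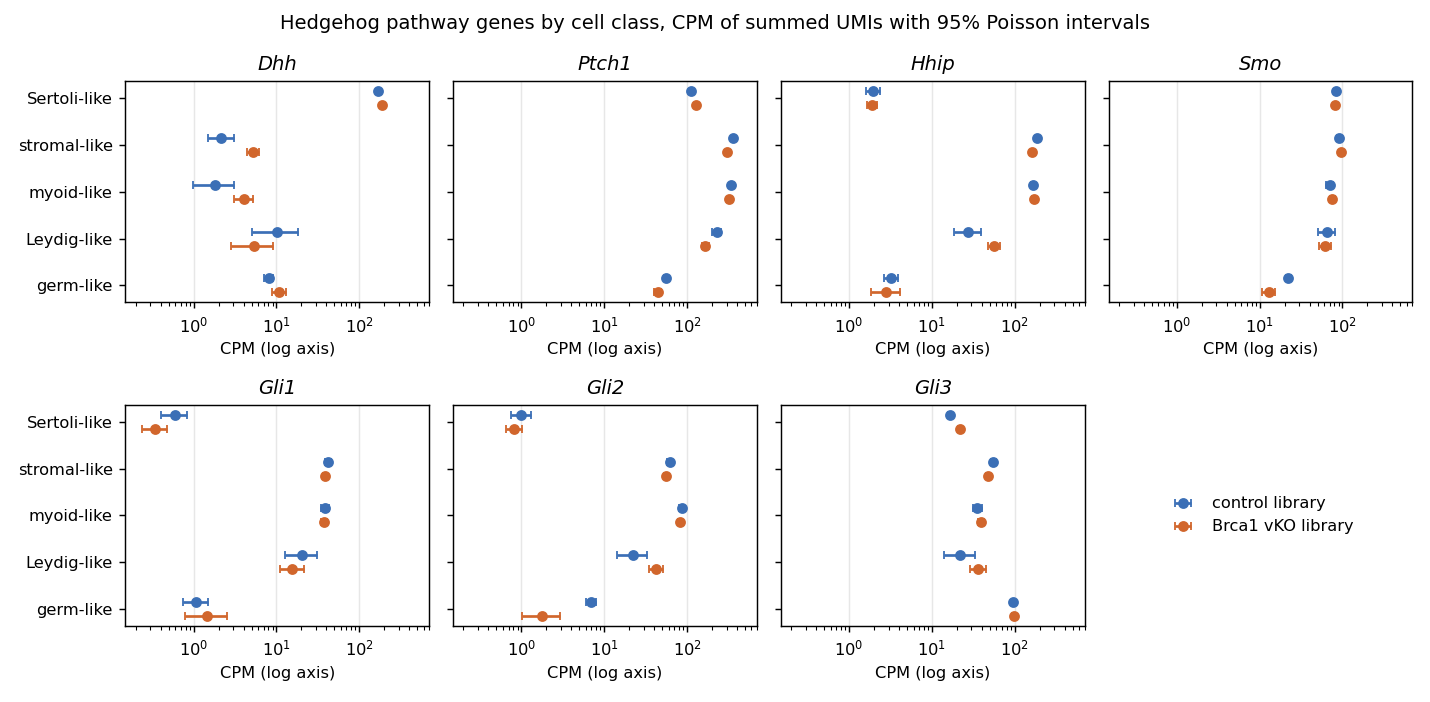
CPM of each of the 7 genes in 5 cell classes, on a log axis, for the control and the Brca1 vKO library, with bars for exact 95% Poisson intervals. Dhh is highest in Sertoli-like cells, Hhip, Gli1 and Gli2 in stromal- and myoid-like cells, and Gli3 in germ-like cells (95.2 and 98.1 CPM).

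*Ptch1*, which encodes the ligand receptor, was highest in stromal- and myoid-like cells. It stood at 361 CPM (351 to 371) in control and 305 CPM (299 to 312) in *Brca1* vKO stromal-like cells, and at 339 CPM (326 to 353) and 322 CPM (313 to 331) in myoid-like cells. Stromal-like cells ranked first in the control, at 1.06 times the myoid-like level, and second in the *Brca1* vKO library, so the order of these 2 classes was not stable. Leydig-like cells followed at 228 CPM (200.4 to 258) and 166 CPM (149.8 to 182). In thinned cells, *Ptch1* was detected in 74.0% of control stromal-like and 74.0% of control myoid-like cells, and in 65.9% and 72.8% of those in the *Brca1* vKO library.

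*Ptch1* was also present in the ligand-producing cells. Sertoli-like cells had 111 CPM (108 to 114) in the control and 129 CPM (126 to 131) in the *Brca1* vKO library. Carry-over from stromal-like cells, set by *Col1a1*, *Col1a2*, *Col3a1* and *Dcn*, would have given 3.23 and 2.77 CPM. Because Sertoli-like cells were the most numerous, they held 36.5% and 47.3% of all *Ptch1* UMIs. *Ptch1* was detected in 35.2% and 38.5% of thinned Sertoli-like cells. Its detection did not follow that of *Dhh*: control cells with a *Dhh* UMI had *Ptch1* in 34.2% of cases (31.5 to 37.1), and those without in 36.6% (33.4 to 40.0). In the *Brca1* vKO library the shares were 38.2% and 39.0%. Proliferating Sertoli-like cells had more *Ptch1* than the other cluster, 128 against 102 CPM in the control and 144 against 117 CPM in the *Brca1* vKO library, the opposite order to *Dhh*.

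*Hhip* and *Gli1* marked the same somatic classes as high *Ptch1* but were nearly absent from Sertoli-like cells. *Hhip*, a membrane protein that binds hedgehog ligands without signalling, stood at 186 CPM (179 to 193) and 163 CPM (158 to 168) in control and *Brca1* vKO stromal-like cells. In myoid-like cells it was at 165 CPM (156 to 174) and 169 CPM (163 to 176). Its Sertoli-like levels were 1.93 and 1.90 CPM, close to the 1.66 and 1.48 CPM that stromal carry-over would give. *Hhip* was thus 96.2 times (79.2 to 118) higher in control stromal-like than in control Sertoli-like cells, and 86.0 times (74.4 to 99.9) in the *Brca1* vKO library. Stromal- and myoid-like cells together held nearly all its UMIs, 61.8% and 29.7% in the control.

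*Gli1*, an activator whose transcription is itself a target of the pathway, showed the same pattern. Its stromal-like levels were 41.9 CPM (38.6 to 45.4) and 38.4 CPM (36.0 to 40.8), and its myoid-like levels 38.5 CPM (34.3 to 43.1) and 37.2 CPM (34.2 to 40.5). These neighbours did not differ beyond counting error in either library, with myoid-like to stromal-like ratios of 0.919 (0.797 to 1.06) and 0.971 (0.873 to 1.08). Leydig-like cells came next, with 20.2 CPM (12.7 to 30.6) and 15.6 CPM (11.02 to 21.4), from 22 and 38 UMIs. Sertoli-like cells had 32 and 35 *Gli1* UMIs, or 0.588 CPM (0.402 to 0.830) and 0.344 CPM (0.239 to 0.478), against 0.375 and 0.348 CPM of stromal carry-over. The *Ptch1* of Sertoli-like cells was therefore accompanied by *Gli1* and *Hhip* only at or near their background.

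*Ptch1* was detected in a larger share of the stromal-like cells with a *Hhip* UMI than of those without. Control stromal-like cells with a *Hhip* UMI had *Ptch1* in 80.9% of cases (76.5 to 84.8), against 68.6% (64.2 to 72.8) of cells without. In the *Brca1* vKO library these shares were 70.7% (67.6 to 73.7) and 62.1% (59.1 to 65.0). For *Ptch1* given *Gli1* the shares were 77.5% and 73.2% in the control and 70.5% and 64.9% in the *Brca1* vKO library, and for *Hhip* given *Gli1* they were 47.5% and 43.4% in the control and 48.7% and 43.5% in the *Brca1* vKO library. The intervals of these *Gli1* pairs overlapped in both libraries. In control myoid-like cells, *Ptch1* was detected in 76.6% of cells with *Hhip* and 72.1% of those without, and in 80.5% of cells with *Gli1* and 72.8% of those without. *Hhip* was detected there in 54.02% of cells with *Gli1* and 40.4% of those without. In *Brca1* vKO myoid-like cells the order was reversed for *Hhip* given *Gli1*, 43.3% with and 44.8% without. There *Ptch1* was detected in 73.9% of cells with *Gli1* and 72.5% without, and in 74.8% with *Hhip* and 71.2% without. Each of these myoid-like pairs had overlapping intervals. All cells had been thinned to the same 5000 UMIs, and at that depth an undetected gene may still be expressed.

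**Figure D2:**
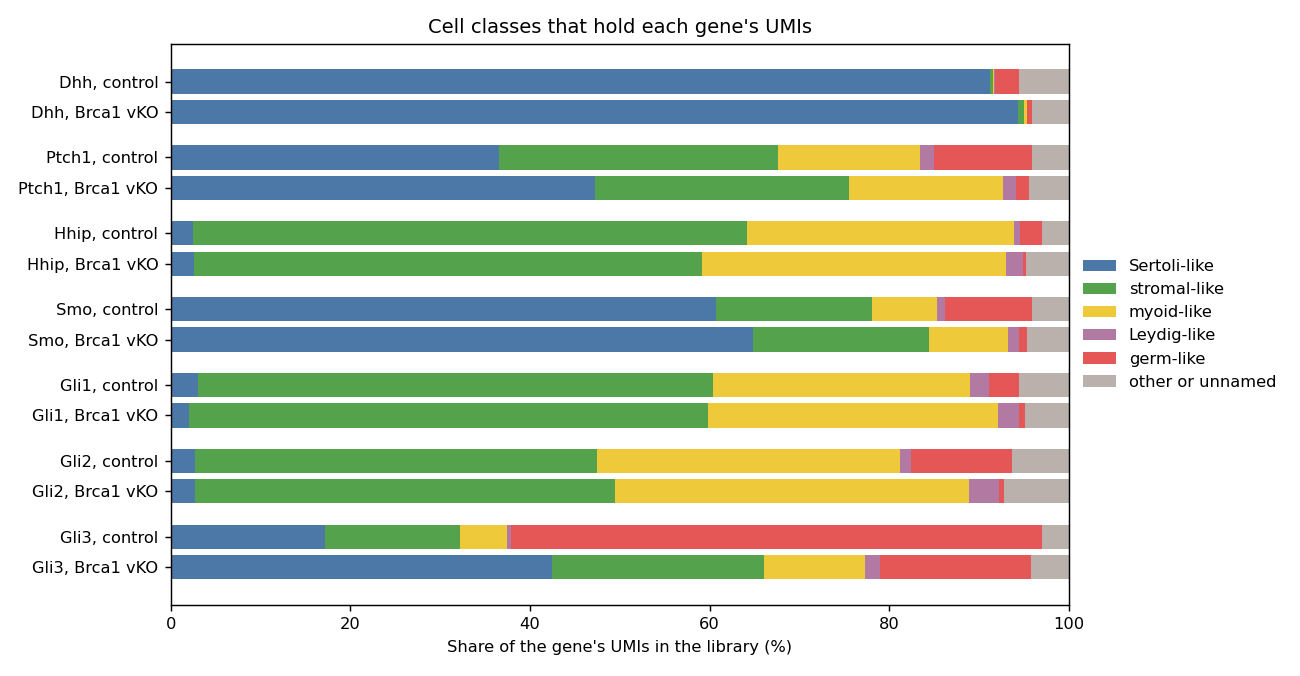
Share of each gene's UMIs held by each cell class, as a percentage of all its UMIs in a library, with the unnamed and smaller classes in grey. Sertoli-like cells hold 91.3% and 94.4% of Dhh, while stromal- and myoid-like cells hold most of Hhip, Gli1 and Gli2. The shares move with the number of cells in a class as well as with the level per cell.

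*Smo*, the seven-pass membrane protein that PTCH1 restrains, was the most evenly spread of the somatic genes. It stood at 83.2 and 81.1 CPM in Sertoli-like, 90.1 and 96.9 CPM in stromal-like, 69.8 and 75.7 CPM in myoid-like and 64.3 and 62.3 CPM in Leydig-like cells. The highest and lowest of these somatic levels differed by 1.40 times in the control (1.10 to 1.81) and 1.56 times in the *Brca1* vKO library (1.32 to 1.85). Germ-like cells were lower, at 22.2 CPM (20.6 to 23.9) and 12.8 CPM (10.6 to 15.4).

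The GLI factors divided by class. *Gli2*, known as the main activator of the pathway, was highest in myoid-like cells, at 86.4 and 82.2 CPM, and exceeded its stromal-like levels of 62.1 and 56.3 CPM by 1.39 times (1.26 to 1.54) and 1.46 times (1.35 to 1.58). It was at 0.992 and 0.825 CPM in Sertoli-like cells. *Gli3*, which often acts as a repressor, had the reverse order of these 2 classes, with 55.0 and 47.9 CPM in stromal-like and 35.4 and 39.6 CPM in myoid-like cells. Within the stromal-like class, *Gli3* had a higher level in the proliferating cluster led by *Pclaf* and *Tubb6*, at 101 and 81.2 CPM, against 43.3 and 40.8 CPM in the other cluster led by *Dcn* and *Dlk1*. Sertoli-like cells, where *Gli1* and *Gli2* were below 1 CPM, had *Gli3* at 16.5 and 21.7 CPM, 33.5 and 49.8 times its carry-over level. Here too the proliferating cluster was higher, 25.3 against 11.6 CPM in the control and 32.0 against 14.4 CPM in the *Brca1* vKO library.

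Germ-like cells had the highest *Gli3* level of the 5 classes, 95.2 CPM (91.8 to 98.6) in the control and 98.1 CPM (91.7 to 105) in the *Brca1* vKO library. Sertoli and stromal carry-over would have given 1.59 and 2.37 CPM. *Gli3* was detected in 32.2% and 42.4% of thinned germ-like cells. *Ptch1* was present there as well, at 55.4 CPM (52.9 to 58.0) and 44.3 CPM (40.0 to 48.9), against 10.5 and 14.6 CPM of carry-over. *Gli1* and *Hhip* were at 1.07 CPM (0.748 to 1.49) and 3.19 CPM (2.61 to 3.87) in control germ-like cells, against carry-over levels of 0.628 and 2.75 CPM. Germ-like cells thus combined *Gli3* and *Ptch1* with little *Gli1*, *Hhip* and, in the *Brca1* vKO library, *Gli2*.

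Germ-like cells were clustered again together with the 411 control and 55 *Brca1* vKO barcodes of an unnamed cluster with few UMIs that scored highest for germ markers. The members differed between the resulting groups, which therefore do not divide the germ-like class alone. The largest group was led by *Kcnc2* and *Gfra1*, with *Ret* and *Lhx1*, which are known from spermatogonial stem cells, and the neutrophil genes *S100a8* and *S100a9* among its 10 leading genes. It had 387 control and 181 *Brca1* vKO cells. A group of 339 control and 53 *Brca1* vKO barcodes with few UMIs was led by haemoglobin genes such as *Hba-a1*. A further group, led by *Kit* and *Stra8*, genes of differentiating spermatogonia, had 161 control cells but only 10 *Brca1* vKO cells. In the control, *Ptch1* was at 62.5 CPM in the *Gfra1*-led and 8.86 CPM in the *Kit*-led group. *Smo* had the opposite order, 12.2 and 32.2 CPM, and so did *Gli2*, 1.40 and 17.0 CPM. *Gli3* was similar in both, 95.1 and 110.5 CPM. In the *Brca1* vKO library the *Gfra1*-led group had 34.1 CPM of *Ptch1*, 8.26 CPM of *Smo*, 0.290 CPM of *Gli2* and 103 CPM of *Gli3*. The 10 *Kit*-led cells of that library also had 180 CPM of *Gfra1*, against 5.17 CPM in the control group, so the groups were not alike between libraries. Another group of 101 and 18 cells was led by *Ebf1*, *Col1a2* and *Dcn*, genes of stromal cells, and 32.7% and 88.9% of its cells were marked as doublets. *Ptch1* was at 113 and 95.4 CPM there, and a group led by *Clu* and *Aard*, genes of Sertoli cells, had 72.5 and 108 CPM. The part of these cells in the germ-like *Ptch1* level was not tested.

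**Figure D3:**
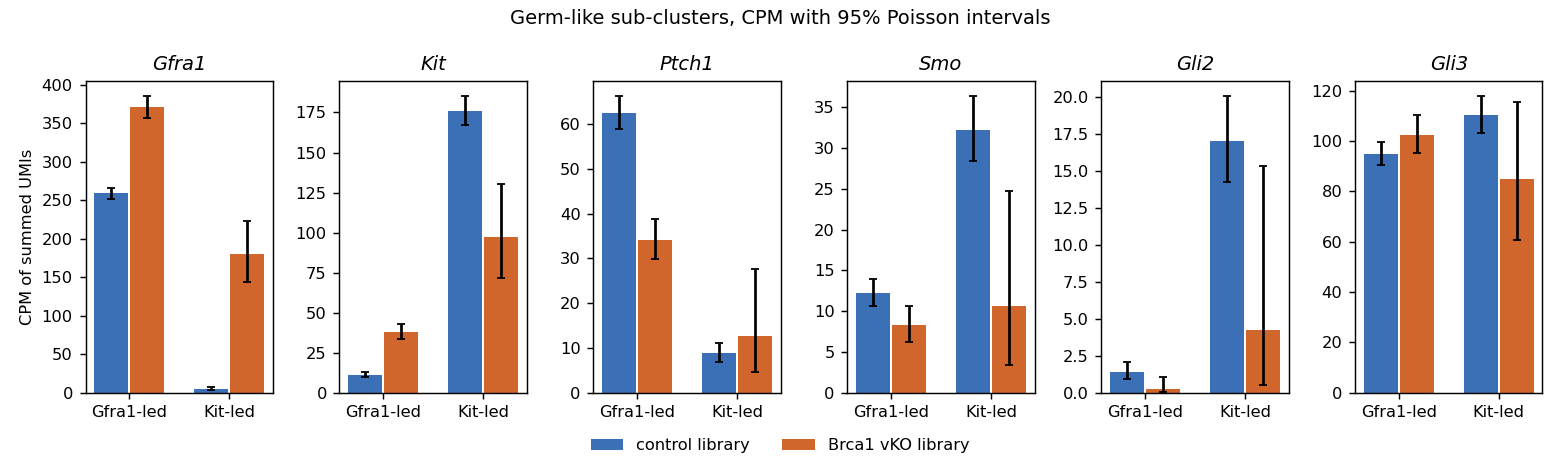
CPM of 2 genes that define the germ-like groups (Gfra1 and Kit) and of 4 pathway genes in the Gfra1-led and Kit-led groups, with bars for the control and the Brca1 vKO library and error bars for exact 95% Poisson intervals. Ptch1 is higher in the Gfra1-led group and Smo and Gli2 in the control Kit-led group. The Kit-led group of the Brca1 vKO library has 10 cells, and its intervals are wide.

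The *Brca1* vKO and control libraries were then compared within each class, which describes differences between the libraries and does not tell genotype, mouse and preparation apart. A difference of at least 2-fold, on CPM with 10 CPM added, was counted for genes with at least 20 UMIs. None of the 7 genes differed by that much in Sertoli-, stromal- or myoid-like cells, and all 7 met the minimum there. Over all genes, 0.103% of 17459 did so in Sertoli-like, 0.0519% of 15421 in stromal-like and 0.085% of 14118 in myoid-like cells. A count of 0 in 7 is near these shares and shows nothing particular to these genes. With 10 CPM added, a gene under 10 CPM in the control cannot pass 2-fold downward. That was so for *Hhip*, *Gli1* and *Gli2* in Sertoli-like cells and for *Dhh* in stromal- and myoid-like cells. It was also so for *Dhh*, *Hhip*, *Gli1* and *Gli2* in germ-like cells, so the counts say nothing of a fall in these. None of the 7 differed by 2-fold in Leydig-like or germ-like cells either, where 1.19% and 1.17% of all genes did. In smaller classes, *Gli2* did so in endothelial-like cells, from 2 to 23 UMIs, a ratio of 8.09 (1.9999 to 70.8), where 2.65% of all genes did. In the 51 and 141 neutrophil-like cells, where 7.08% did, *Dhh* went from 3 to 35 UMIs, *Ptch1* from 8 to 65 and *Hhip* from 2 to 26, with ratios of 5.81 (1.83 to 29.5), 4.05 (1.94 to 9.77) and 6.48 (1.62 to 56.3). The *Dhh* levels there, 3.51 and 20.4 CPM, stood beside 6.08 and 19.1 CPM at the Sertoli ratio. The cells of this class were not alike between libraries. Macrophage markers summed to 2931 CPM in the control and 1651 CPM in the *Brca1* vKO library, and neutrophil markers to 1392 and 47531 CPM. These ratios thus compare unlike mixtures of cells. The median log2 difference of the 7 genes was -0.00 in Sertoli-like, -0.12 in stromal-like and 0.03 in myoid-like cells, against -0.00, -0.01 and -0.01 over all genes tested. The Sertoli-like median takes in *Hhip*, *Gli1* and *Gli2*, whose differences the added 10 CPM shrinks to almost nothing.

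In Sertoli-like cells, *Dhh* was 1.12 times as high in the *Brca1* vKO library (1.09 to 1.15), and *Ptch1* 1.16 times (1.12 to 1.19). The difference held in both Sertoli-like clusters, with *Dhh* ratios of 1.14 (1.10 to 1.17) and 1.13 (1.08 to 1.18). *Gli3* was 1.31 times as high (1.21 to 1.42) and *Smo* 0.975 times (0.940 to 1.01). Among 9927 genes with at least 1000 UMIs in these cells, ratios ran from 0.891 to 1.14 between the 5th and 95th percentiles, on CPM with 10 CPM added. The *Dhh* ratio thus lay inside, and the *Ptch1* ratio at the edge of, the spread shown by well-measured genes between these 2 mice. *Gli3*, at a log2 difference of 0.26 on that scale, lay outside it. The 5 red blood cell genes summed to 669 CPM in control and 223 CPM in *Brca1* vKO Sertoli-like cells, and the part of such differences between the cell suspensions was not tested.

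In stromal-like cells, the response genes were lower in the *Brca1* vKO library. *Ptch1* stood at 0.846 times the control level (0.817 to 0.876), *Hhip* at 0.878 (0.836 to 0.922) and *Gli1* at 0.916 (0.827 to 1.02), the last within counting error. Their summed level fell from 588 to 507 CPM, a ratio of 0.861 (0.838 to 0.885). The difference came from the larger, non-proliferating cluster, where the summed ratio was 0.830 (0.805 to 0.856). In the proliferating stromal-like cluster it was 1.01 (0.946 to 1.07). A lower level in the stromal-like class was not limited to the response genes: *Gli2* was at 0.907 and *Gli3* at 0.871, while *Smo* was at 1.08. Among 5974 genes with at least 1000 UMIs, the 5th and 95th percentiles were 0.873 and 1.14, so *Ptch1* lay outside this range and *Hhip* just inside. Red blood cell genes summed to 1179 CPM in control and 115 CPM in *Brca1* vKO stromal-like cells, and their part in this ratio was not tested.

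In myoid-like cells, the same genes were nearer to equal. The ratios were 0.949 for *Ptch1* (0.905 to 0.996), 1.03 for *Hhip* (0.958 to 1.10) and 0.967 for *Gli1* (0.839 to 1.12), and 0.974 for their sum (0.938 to 1.01). *Smo*, *Gli2* and *Gli3* had ratios of 1.08, 0.952 and 1.12, each with an interval that held 1. A lower level of the response genes in the *Brca1* vKO library was therefore seen in non-proliferating stromal-like cells and was not detectable for the sum in myoid-like cells. Whether these classes differ from each other in that respect was not tested, since each rests on the same pair of mice.

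Leydig-like cells rested on few UMIs. *Ptch1* was at 0.726 times its control level (0.619 to 0.854), while *Hhip* was at 2.07 times (1.38 to 3.18), from 27.6 to 57.0 CPM, *Gli2* at 1.93 times (1.23 to 3.15) and *Gli3* at 1.64 times (1.03 to 2.69). *Gli1* had a ratio of 0.770 (0.444 to 1.37). The members thus did not move together in this class. The *Hhip* ratio passed 2 before, but not after, 10 CPM was added to each level. With cells over 5% mitochondrial UMIs left out, the *Hhip* ratio was 1.12 and that of *Gli3* turned to 0.884.

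In germ-like cells, the class in which *Vasa-Cre* acts, *Gli3* did not differ detectably between libraries, with a ratio of 1.03 (0.955 to 1.11). *Gli2* was at 0.260 (0.146 to 0.432), *Smo* at 0.577 (0.470 to 0.704) and *Ptch1* at 0.799 (0.715 to 0.892). Within the *Gfra1*-led group alone, a choice made after the data were seen, *Gli2* was at 0.207 (0.0238 to 0.832) from 25 and 2 UMIs and *Smo* at 0.678 (0.497 to 0.911). *Ptch1* was there at 0.545 (0.471 to 0.628). The marker genes of that group moved too: *Sox3* was at 32.7 and 7.68 CPM, control before *Brca1* vKO, *Stra8* at 77.5 and 35.1, *Kit* at 11.4 and 38.0 and *Gfra1* at 259 and 371 CPM, and their part in these ratios was not tested. The germ-like values depended on which cells were counted: with doublets removed the *Gli2* ratio was 0.0861, and with a limit of 5% mitochondrial UMIs it was 0.435 and that of *Ptch1* turned to 1.12. Neutrophil markers summed to 3.01 CPM in control and 204 CPM in *Brca1* vKO germ-like cells, and their part in these ratios was not tested.

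**Figure D4:**
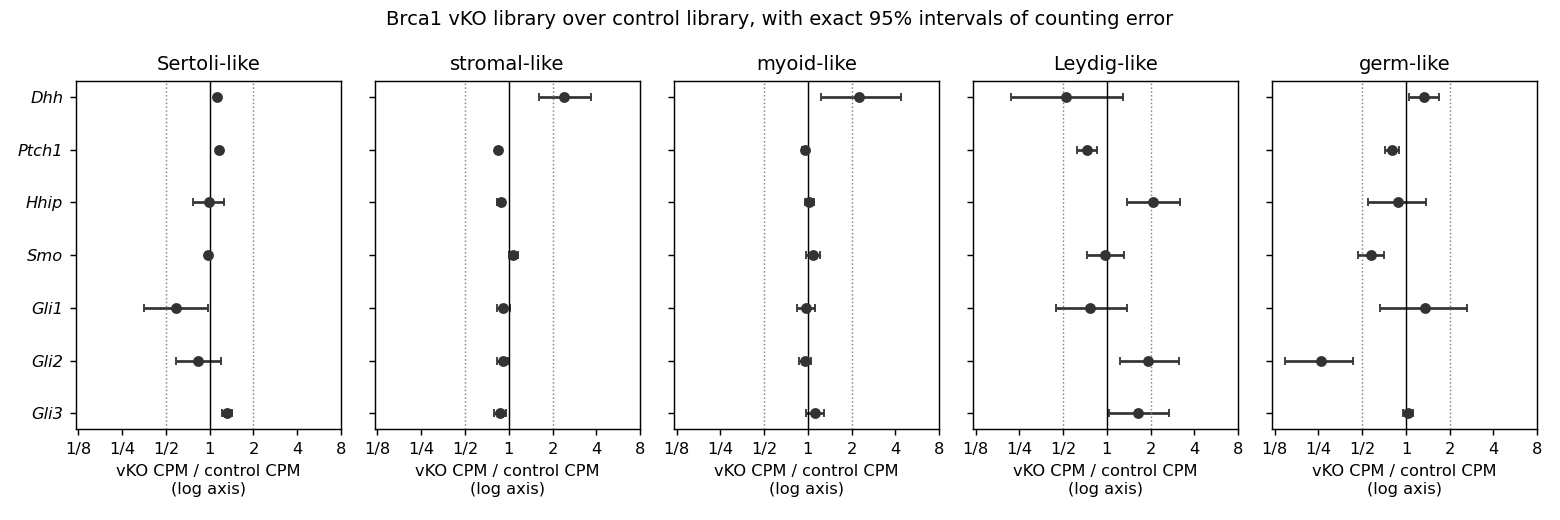
Ratio of the Brca1 vKO to the control level of each gene within 5 cell classes, on a log axis, with exact 95% intervals that cover counting error only and dotted lines at a 2-fold difference. Dhh and Ptch1 lie above 1 in Sertoli-like cells (1.12 and 1.16), and Ptch1 and Hhip lie below 1 in stromal-like cells (0.846 and 0.878). The Dhh ratios outside Sertoli-like cells compare background levels.

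The other genes of the pathway were taken from a list of 54 genes that includes the 7, of which 47 had at least 50 UMIs in Sertoli-, stromal- and myoid-like cells. With 10 CPM added as before, none of the list differed by 2-fold between libraries in those classes. In germ-like cells 1 of the 50 that met the minimum did, near the 1.17% of all genes. It was *Ccnd2*, which encodes cyclin D2, from 190 to 579 CPM. Of the 47, 40 had the same highest class in both libraries: 7 in Sertoli-like, 10 in stromal-like, 9 in myoid-like, 2 in Leydig-like and 12 in germ-like cells.

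Genes for making and releasing the ligand were not all highest where *Dhh* was. *Disp1*, which releases lipid-modified hedgehog from producing cells, was highest in Sertoli-like cells at 73.2 and 62.2 CPM and next in germ-like cells at 49.3 and 42.4 CPM. *Hhat*, which adds palmitate to the ligand, was at 8.54 and 8.61 CPM in Sertoli-like and 21.1 and 18.7 CPM in myoid-like cells. The co-receptors were low in Sertoli-like cells and lay in the classes with high *Ptch1*. *Gas1* was at 247 and 287.5 CPM in myoid-like and 195 and 244 CPM in stromal-like cells. *Boc* was at 54.3 and 58.8 CPM in stromal-like cells and 0.551 and 0.638 CPM in Sertoli-like cells. *Cdon* was highest in Leydig-like cells, at 461 and 375 CPM.

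Regulators of the GLI factors and cilium genes differed in their highest class. *Sufu*, which holds GLI proteins in the cytoplasm, ranged only from 14.4 to 28.5 CPM over the 5 classes and both libraries. All 7 cilium genes had their highest class in common between libraries, which was the stromal-like class for 2, the myoid-like for 2, the germ-like for 2 and the Sertoli-like for 1. *Arl13b*, a GTPase of the primary cilium, where SMO signals, was at 80.4 and 96.0 CPM in stromal-like but 23.0 and 25.4 CPM in Sertoli-like cells. Of the genes known as targets in other tissues, *Bcl2* was highest in myoid-like cells at 105.4 and 116 CPM. *Mycn* was highest in Sertoli-like cells at 56.3 and 48.4 CPM, and *Ccnd1* in germ-like cells at 112 and 151 CPM. Of these 3 genes, *Bcl2* thus had its highest level in a class with high *Gli1*.

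**Figure D5:**
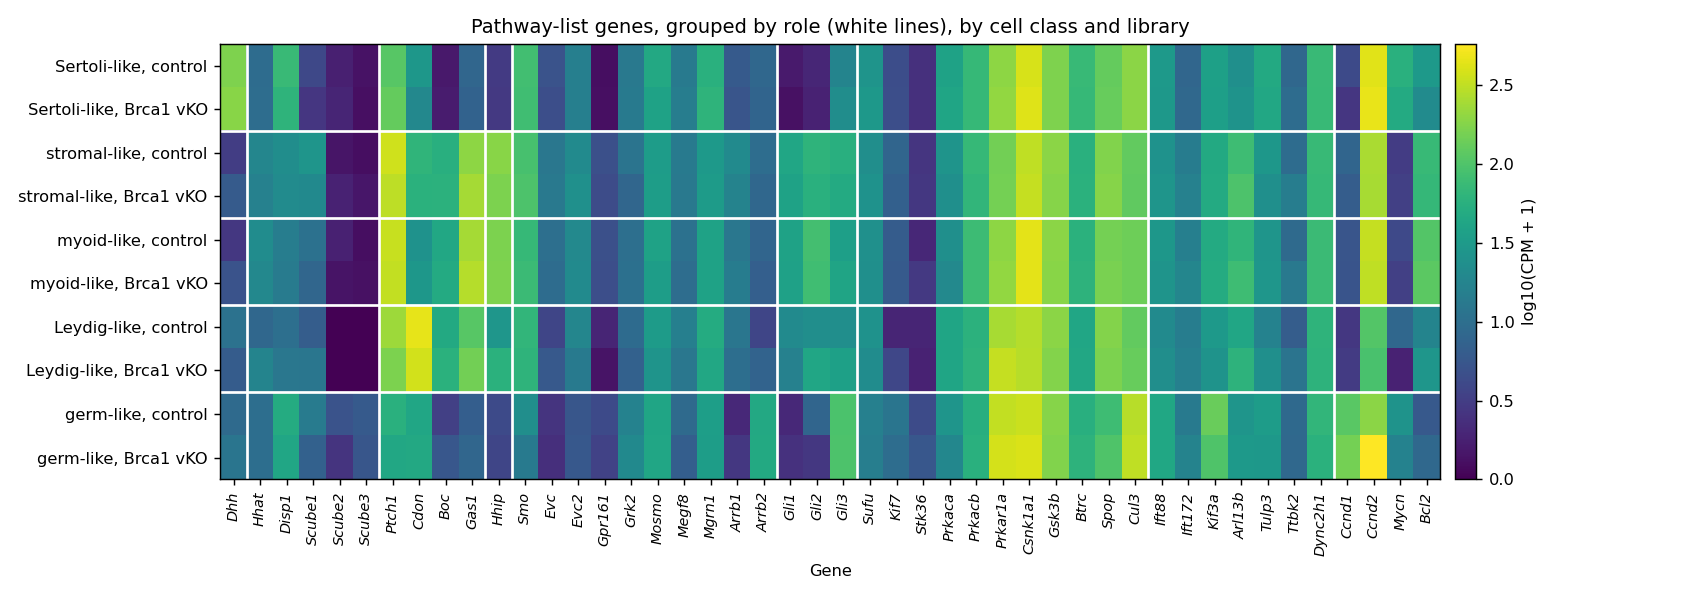
Levels, as log10(CPM + 1), of 46 of the 47 pathway genes with at least 50 UMIs, in columns grouped by role and divided by white lines, over 5 cell classes in the control and the Brca1 vKO library. The 2 libraries look alike within a class. Cdon stands out in Leydig-like cells (461 and 375 CPM) and Gas1 in stromal- and myoid-like cells.

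Over the 8 named classes of both libraries (16 profiles), the genes most like *Dhh* in log2 level were *Clec12b* and *Shbg* (r = 0.992 each), *Tmem184a* (0.987), *Gpr37* (0.985) and *Gstm6* (0.982), among 11159 genes. Those most like *Hhip* were *Abcb5* (0.971), *Gm27216* (0.963), *Nrxn3* (0.957), *Tspan11* (0.956) and *Cyp27a1* (0.956). Those most like *Gli1* were *Hs3st3a1* (0.976), *Gm13652* (0.968), *Itih5* (0.966), *Syt13* (0.965) and *Ccn4* (0.957). Among the members, *Hhip* and *Gli1* were most alike (r = 0.92), followed by *Gli1* and *Gli2* (0.88), *Ptch1* and *Hhip* (0.84) and *Ptch1* and *Gli1* (0.83). *Dhh* had negative values with *Gli1* (-0.55) and *Gli2* (-0.62). These values describe patterns across cell classes that share libraries and depth, and they are not tests.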

How the data were processed

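Testes of 1 control and 1 *Brca1* vKO mouse at PD7 were profiled with the 10x Genomics platform. The authors aligned the reads to mm10 and made the deposited counts of UMIs per gene and barcode with Cell Ranger 6.0.2, without normalization. Each library was 1 group, and the 7 genes and all lists were chosen with earlier results of these data known.

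Here, barcodes under 750 genes or over 10% mitochondrial UMIs were dropped. Counts were clustered in Seurat 5.3.0 (2000 variable genes, 20 components, a reimplementation of Harmony, resolution 0.25), with 5 variable genes of the pathway list left out. Clusters were named by markers scored at 1 or more. Low-UMI clusters, a cluster of doublets and 1 cluster of 19 and 8 cells stayed unnamed. After seeing the data, red blood and Schwann markers were not used as names. Germ-like cells and the low-UMI barcodes that scored highest for germ markers were clustered again at a resolution of 0.2. Doublets were marked with Scrublet in scanpy 1.11.5 and kept in the sums. UMIs were summed per class and divided by the class total. Poisson, binomial and conditional ratio intervals were exact (scipy 1.17.1) and were tested on simulated data. Besides the 7 genes, the genes named were the pathway genes with most UMIs per role, those past 2-fold, and the 5 most alike. *Boc*, *Sufu*, *Ift88*, *Ccnd1*, *Foxf1* and *Rhebl1* fall outside that rule and were chosen after their values were seen, and 1 gene of the pathway list is not reported here. Promoters came from RefSeq (GRCm38.p6) and positions from GENCODE. Before filtering, the libraries totalled 120568700 (control) and 165062097 UMIs. The 11 alternatives tried covered clustering, doublets, mitochondrial limit, thinning, scaling with edgeR 4.0.16 (TMM), pseudocount and minimum.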

Additional observations from a re-analysis of the deposited data

Results flagged for a closer look

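For *Ptch1*, *Hhip*, *Smo*, *Gli2* and *Gli3*, the *Brca1* vKO to control ratio lay above 1 in at least 1 cell class and below 1 in another. Each ratio listed first below had an interval of counting error that left out 1. The share of all genes that did so was not counted, so nothing particular to these genes is shown. Among 9927 well-measured genes in Sertoli-like cells, ratios with 10 CPM added ran from 0.891 to 1.14 between the 5th and 95th percentiles. The difference between classes was not tested, since every class comes from the same pair of mice. *Ptch1* was at 1.16 in Sertoli-like cells but at 0.846 in stromal-like, 0.949 in myoid-like, 0.726 in Leydig-like and 0.799 in germ-like cells. *Hhip* was at 2.07 in Leydig-like and 0.878 in stromal-like cells. *Smo* was at 1.08 in stromal-like and 0.577 in germ-like cells. *Gli2* was at 1.93 in Leydig-like, 0.907 in stromal-like and 0.260 in germ-like cells. The germ-like *Smo* and *Gli2* ratios compare unlike mixtures of cells, with 161 control and 10 *Brca1* vKO cells in the *Kit*-led group. *Gli3* was at 1.31 in Sertoli-like and 1.64 in Leydig-like cells, and at 0.871 in stromal-like cells. Some of these directions turned under another processing: *Smo* and *Gli3* in stromal-like cells were at 0.851 and 1.09 with cells thinned to 2000 UMIs, *Ptch1* in Leydig-like cells was at 1.04 under that thinning, and with at most 5% mitochondrial UMIs *Gli3* in Leydig-like cells was at 0.884 and *Ptch1* in germ-like cells at 1.12.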

How the results depend on the processing

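No paired analysis was possible because each genotype had 1 library. For the same reason no replicate could be left out. The summed ratio of *Ptch1*, *Gli1* and *Hhip* in stromal-like cells stayed between 0.857 and 0.885 under the 8 alternatives that apply to it. The Sertoli-like *Dhh* ratio was 1.12 to 1.14 except with cells thinned to 2000 UMIs, where it was 1.20, and the myoid-like summed ratio was 0.911 under that thinning. The cause of these shifts was not tested. The share of *Dhh* UMIs in Sertoli-like cells, control before *Brca1* vKO, was 94.5% and 97.1% without doublets, 93.05% and 94.9% with classes set by the rule's markers alone, and 81.9% and 92.3% with thinning to 2000, which gives every cell the same weight. It was 96.3% in the *Brca1* vKO library with at most 5% mitochondrial UMIs. The share of *Ptch1*, *Gli1* and *Hhip* UMIs in stromal-, myoid- and Leydig-like cells, 58.9% and 58.1%, was 61.5% and 61.7% at a resolution of 0.5, 62.6% and 60.5% without doublets, 70.2% and 65.0% at 5% mitochondrial UMIs, 63.3% and 62.6% with the rule's markers, and 75.0% and 76.0% with thinning to 2000. With 1 CPM added in place of 10, 2 members passed 2-fold within the 5 main classes, *Hhip* in Leydig-like and *Gli2* in germ-like cells, against 0 under the other settings there.

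Of 286 ratios of single genes under alternatives, for 35 gene and class pairs, 245 lay inside the interval of the reported value, 31 moved outside it and 10 changed direction. Thinning to 2000 UMIs turned *Gli1* in Sertoli-like cells to 1.45, *Smo* and *Gli3* in stromal-like cells to 0.851 and 1.09, *Ptch1* and *Gli3* in Leydig-like cells to 1.04 and 0.563, and *Dhh* in germ-like cells to 0.504. Removing doublets turned *Gli1* in Sertoli-like cells to 1.06. *Gli3* in Leydig-like cells turned to 0.884 at 5% mitochondrial UMIs and 0.967 with the rule's markers, and *Ptch1* in germ-like cells to 1.12 at 5% mitochondrial UMIs. Depth limits the *Gli1* ratios in Leydig-like cells, which rest on 22 and 38 UMIs, and in Sertoli-like cells, which rest on 32 and 35. Within the largest germ-like group, an alternative chosen after seeing the data, the *Dhh* ratio was 2.59 (1.54 to 4.37), from 32 and 32 UMIs. The *Hhip* ratio there was 1.94 (0.556 to 6.39), from 8 and 6 UMIs. Both compare low levels, 1.79 and 4.64 CPM for *Dhh* and 0.447 and 0.870 CPM for *Hhip*.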

Other observations

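In the unnamed cluster of low-UMI barcodes that scored highest for Sertoli markers, *Dhh* stood at 186 CPM in the control and 173 CPM in the *Brca1* vKO library, near the Sertoli-like levels, while *Ptch1* was at only 26.0 and 28.6 CPM and *Smo* at 21.2 and 28.6 CPM. These barcodes had medians of 3634 and 2237 UMIs. The unnamed cluster led by *Ecrg4* and *Pax8*, with 19 control and 8 *Brca1* vKO cells, had 78.5 and 138 CPM of *Dhh* together with 213 and 259 CPM of *Ptch1* and no *Hhip* UMI. *Foxf1*, a hedgehog target of other tissues, stood at 23.5 and 15.1 CPM in germ-like cells and at 32.8 and 15.1 CPM in endothelial-like cells, but below 1 CPM in Sertoli-, stromal- and myoid-like cells. Over the whole libraries, *Dhh* stood at 84.2 and 124 CPM, while Sertoli-like cells made up 40.0% and 47.8% of the cells.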
